A study of Rattus norvegicus with 18 samples.

Results

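The genes described here make cholesterol or hold its synthesis in check: Hmgcs1, Sqle, Fdft1, Fdps, Idi1, Cyp51, Dhcr7 and Insig1. Their probe sets were found by taking, from the platform annotation of the array, every probe set whose only gene symbol was one of these 8. This gave 19 of the 8799 probe sets on the array, for 7 genes. Hmgcs1 was not analysed here. Of the 19 probe sets, 16 from 7 genes had a mean intensity above the median of all probe sets and were tested. The other 3, each 1 of several probe sets for Fdps, Idi1 and Cyp51, are described with no adjusted p.

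The tissue was the suprachiasmatic nucleus (SCN), the hypothalamic seat of the main circadian clock, from adult male Long-Evans rats, an outbred strain. The animals were kept in a light-dark cycle, then released into constant darkness, and were killed at intervals of 6 h starting at projected lights-on, which is circadian time (CT) 0. No genotype or drug differed between groups, and the 8 groups are the time points 0, 6, 12 and 18 h of the first day and 24, 30, 36 and 42 h of the second. RNA of 5 rats was pooled at each time point and read on rat U34A GeneChips, so the spread between animals is not seen. The p-values measure only the spread between pool means, which holds array noise as well as differences between pools. A first run had 10 arrays, since the 24 h and 36 h time points each have an array a and an array b, and a technical repeat had 8. The cell line SCN2.2 was not analysed here.

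Cells make cholesterol from acetyl-CoA through mevalonate, isoprenoid phosphates, squalene and lanosterol. When membrane sterol falls, the transcription factor SREBP-2 leaves the endoplasmic reticulum, is cut in the Golgi and raises the genes of this pathway together, while INSIG proteins hold its escort SCAP back when sterol is plentiful. The adult brain makes its own cholesterol behind the blood-brain barrier, and oligodendrocytes and astrocytes carry out most of this synthesis. In liver, pathway genes are known to cycle with feeding and the clock.

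Sterol promoters are known to combine SREBP sites with CCAAT boxes, bound by NF-Y, and GC boxes, bound by Sp1, and the clock's CLOCK-BMAL1 pair binds the E-box. Windows from 250 bases before to 50 bases after the annotated start were available from RefSeq (build GRCr8) for 5 of the 7 measured genes, Fdps, Idi1, Cyp51, Dhcr7 and Insig1. On either strand, CCAAT was present in 3 of the 5 windows and in 37.5% of all 33469 windows. GGGCGG was present in 4 of the 5 and in 33.1% of all, and the E-box CACGTG in 1 of the 5, that of Insig1, and in 6.42% of all. The sterol regulatory element spelled TCACNCCAC was in 0 of the 5 (1.12% of all windows), as was the D-box spelled TTANGTAA (2.24%). Other spellings of the sterol element were not searched, so these windows cannot be said to lack it. A match of letters is a description and not a binding site. The stretches of Fdps and Idi1 that hold paired CCAAT boxes and the stretch of Insig1 that holds the E-box are shown because these genes are followed by phase below. They lie on the minus strand at chr2:176804882-176804961, chr17:66547540-66547609 and chr4:8057815-8057874, and capitals mark CCAAT, or ATTGG where it reads on the other strand, in Fdps and Idi1 and CACGTG in Insig1:
Fdps: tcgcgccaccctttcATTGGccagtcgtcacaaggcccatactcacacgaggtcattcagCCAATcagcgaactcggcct
Idi1: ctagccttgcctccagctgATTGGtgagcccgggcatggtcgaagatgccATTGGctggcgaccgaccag
Insig1: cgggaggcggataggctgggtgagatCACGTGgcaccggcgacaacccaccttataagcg

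Facts of the whole array set bear on these genes as follows. The deposited values were scaled alike on all arrays (trimmed mean 500.7 to 500.8), but median intensity was 136.5 to 152.3 on the arrays of the first run and 107.9 to 127.6 on those of the repeat. On 3 first-run arrays (12 h, 18 h and array b at 36 h) the added hybridisation controls averaged 4801 to 6370, against 1118 to 2417 on the other 15. The number of arrays limits the precision of every value below. Markers of the SCN were present: Avp, Vip, Sst and Calcr were on the array, and 3 of the 4 passed the level filter. The summed intensity of the 4 was 9054 to 11571 in first-day pools and 8282 to 8722 in second-day pools, with no overlap. Sst M25890_at, the brightest of them, changed from the first to the second day by -0.41 ± 0.14 log2 (SE). Avp M64785_g_at and Calcr L13040_s_at changed by 0.04 ± 0.15 and -0.06 ± 0.25. Summed markers of oligodendrocytes (8 genes, 7 above the filter) were 33732 to 37796 in the pools of the first day and 33777 to 38684 in those of the second. For astrocytes (10 genes, 9 above the filter) these ranges were 43564 to 48645 and 40401 to 47412. The brightest genes weigh most in such sums. For CT 12 minus CT 0, an unadjusted limma p under 0.05 was met by 1 of 11 tested oligodendrocyte probe sets and 2 of 13 of astrocytes. All were lower at CT 12 (8.67% of all tested, in either direction). The part of cell composition in the values below was not tested, and fewer cells of a type and less RNA per cell cannot be told apart in pooled tissue.

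None of the sterol genes passed the adjusted test in any comparison of phase or day. The array run went with large differences in several of their probe sets, in both directions: Idi1 and Sqle were higher in the technical repeat, Dhcr7 and most probe sets of Fdft1, Fdps and Cyp51 were lower, and Insig1 was higher on 1 of its 2 probe sets. For each of the 16 tested probe sets the technical repeat was set against the first run at the same 8 time points. The difference averaged over the time points passed 1 log2 unit in 3 of 16 (11.5% of all tested), and the intensities of both runs did not overlap in 2 of 16 (14.4%). The median size of the run difference was 0.57 log2 for the members and 0.39 for all tested probe sets. Its SD over time points had a median of 0.41 for the members and 0.43 for all. The SD over pools of the mean of both runs had a median of 0.24 and 0.23. A difference of 2 runs holds more array noise than their mean, so these SDs cannot be compared directly.

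**Figure D1:**
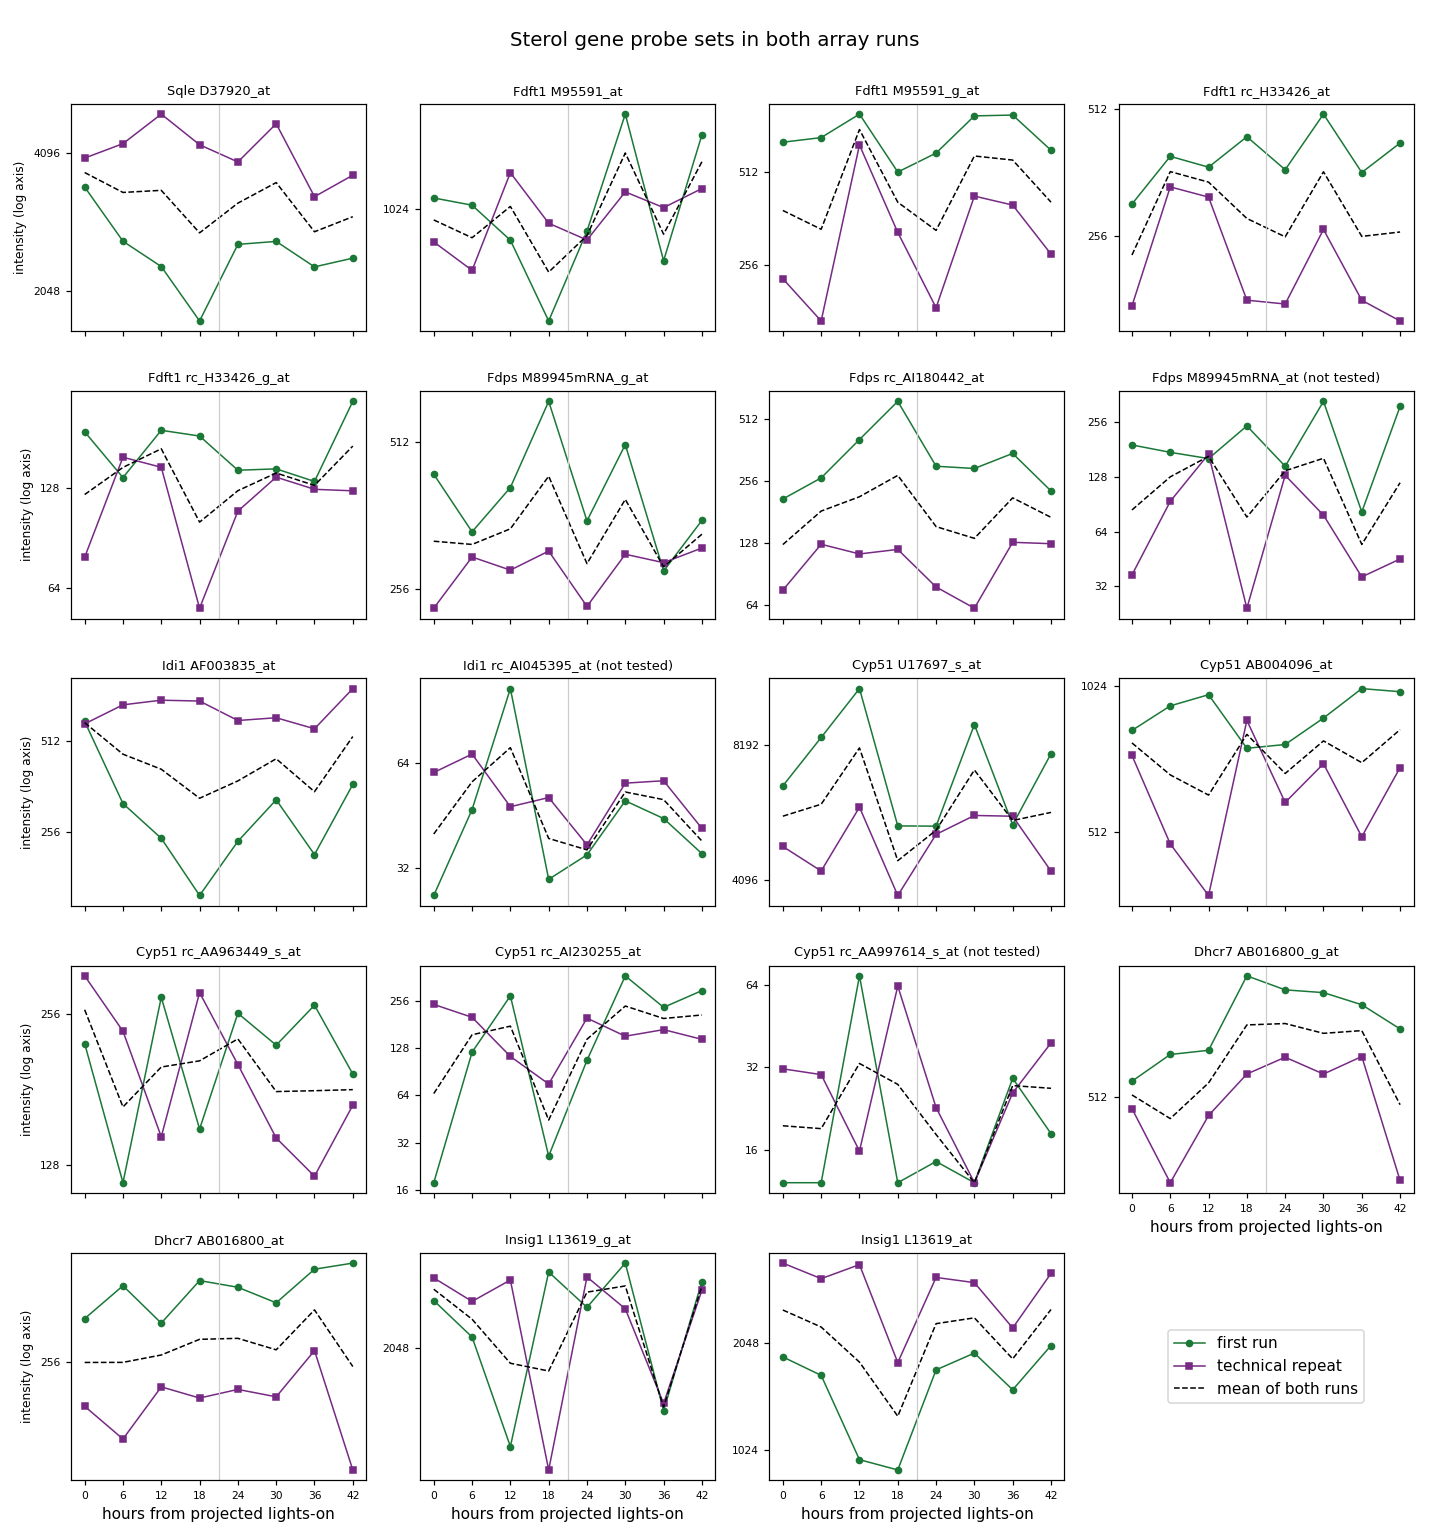
Intensity (log axis) of the 19 sterol gene probe sets against hours from projected lights-on, in the first run (green circles, arrays a and b averaged), the technical repeat (purple squares) and the mean of both (dashed). The grey line parts the days. Sqle and Idi1 AF003835_at lay higher in the repeat at all 8 and at 7 of 8 time points, and Fdps rc_AI180442_at lay lower at all 8.

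Among the early steps, Idi1 interconverts both building blocks of isoprenoids and Fdps joins them to farnesyl diphosphate. Idi1 AF003835_at had pool intensities of 587, 462, 412 and 331 at 0, 6, 12 and 18 h and of 377, 446, 348 and 528 at 24, 30, 36 and 42 h. The highest pool was 0 h and the lowest 18 h, each pool of day 1 being lower than the one before it, but day 2 did not show that order. The runs differed in shape: the first run went from 592 at 0 h to 158 at 18 h, while the repeat stayed between 560 and 760. Over the time points the repeat was higher by 1.17 log2, and at 0 h alone it was not higher. First-run values were low at 12, 18, 24 and 36 h, at 244, 158, 239 and 216. Those at 12, 18 and 36 h include the 3 arrays with the highest hybridisation controls, and that at 24 h does not. Without these arrays, and with run as a fixed term, the CT 12 minus CT 0 difference of AF003835_at was -0.09 log2 in place of -0.31.

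Fdps M89945mRNA_g_at ranged from 284 at 36 h to 436 at 18 h, with a median of 326. Fdps rc_AI180442_at read 126, 184, 215 and 274 on the first day and 154, 135, 213 and 171 on the second. The CT 12 values exceeded the CT 0 values, but the highest pool was 18 h on day 1 and 36 h on day 2. In the first run this probe set read 210 to 626 and in the repeat 62 to 129.5, with no overlap, and the mean run difference was -1.66 log2. The run difference of M89945mRNA_g_at was -0.51.

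Fdft1, squalene synthase, commits farnesyl diphosphate to sterols, and Sqle, squalene epoxidase, is a rate-limiting step after it. Sqle D37920_at was among the brighter members, with pool intensities of 3719, 3363, 3399 and 2741 on day 1 and 3186, 3535, 2757 and 2975 on day 2. The days overlapped, with the lowest values at 18 h and 36 h. The repeat was higher than the first run at 8 of 8 time points, by a mean of 0.74 log2. In the first run Sqle was lowest at 18 h (1756) and highest at 0 h (3456), whereas in the repeat it was lowest at 36 h (3292) and highest at 12 h (4998).

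The 4 probe sets of Fdft1 did not move alike between runs. M95591_at had a run difference of -0.02 log2, while M95591_g_at, named for the same sequence record, had one of -1.12 and was lower in the repeat at 8 of 8 time points. The rc_H33426_at and rc_H33426_g_at differences were -0.87 and -0.57. M95591_g_at read 384, 334, 700 and 408 on day 1 and 332, 575, 558 and 409 on day 2. Its highest pool was 12 h, and no CT 0 pool reached the level of a CT 12 pool. M95591_at over the same pools had its lowest value at 18 h (814) and its highest at 30 h (1259), with 1035 at 12 h and 935 at 36 h. These CT 12 values lay inside the range of its other pools.

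After the ring is closed, Cyp51 removes a methyl group from lanosterol and Dhcr7 carries out a last reduction to cholesterol. Cyp51 U17697_s_at read 5685, 6046, 8081 and 4521 on day 1 and 5288, 7212, 5561 and 5797 on day 2. The peak was at 12 h on the first day and at 30 h on the second, so no phase was highest on both. Cyp51 AB004096_at ranged from 609 to 832 and rc_AA963449_s_at from 167 to 262. U17697_s_at was highest at 12 h, the pool at which AB004096_at was lowest.

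Cyp51 rc_AI230255_at read 65.8, 157, 178 and 44.6 on day 1 and 147, 239, 199 and 210 on day 2. The groups overlapped at 24 h, which lay below the 6 h and 12 h pools. The arrays a and b at 24 h read 38.3 and 301 for this probe set, a difference of 2.98 log2 where the labels give the same time point. Over the 16 tested members the median size of the difference between arrays a and b was 0.42 log2 at 24 h and 0.59 at 36 h, against 0.43 and 0.52 for all tested probe sets. At 36 h, array b was the lower of the pair for 13 of 16 members, Sqle being 3361 on array a and 1585 on array b.

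Dhcr7 AB016800_g_at read 516, 470, 541 and 680 on day 1 and 684, 658, 665 and 497 on day 2. Pools from 18 to 36 h were the highest and 42 h returned to the level of the first 12 h, so its course did not repeat by phase. Dhcr7 AB016800_at stayed between 251 and 324 and did not overlap between runs. Both Dhcr7 probe sets were lower in the repeat at 8 of 8 time points, by 0.48 and 0.73 log2 (differences of -0.48 and -0.73).

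Insig1, which retains SCAP and SREBP in the endoplasmic reticulum and is itself a target of SREBP, was read by a pair of probe sets. L13619_at read 2535, 2271, 1809 and 1275 on day 1 and 2321, 2410, 1848 and 2544 on day 2. Each pool of day 1 was lower than the one before it, and CT 12 was below CT 0 and CT 6 on both days, but CT 18 was the lowest pool of day 1 and the highest of day 2. L13619_g_at read 2373, 2200, 1969 and 1931 on day 1 and 2355, 2392, 1763 and 2392 on day 2, again with low values at 12, 18 and 36 h. The repeat exceeded the first run by 0.92 log2 for L13619_at at 8 of 8 time points, and by 0.00 for L13619_g_at, higher at 5 of 8. At 18 h in the first run the pair went opposite ways, with L13619_at at its lowest, 901, and L13619_g_at at 2477, near its highest. In the repeat both were lowest at 18 h, L13619_at at 1804 and L13619_g_at at 1505. Of the 18 arrays, the first-run 18 h array had the highest 3′ to 5′ ratios, a sign of RNA quality, for the GAPDH and beta-actin controls. They were 35.2 for GAPDH (8.55 to 32.5 on the others) and 20.9 for beta-actin (2.02 to 17.0). The repeat array at 18 h had 17.9 and 2.02. On the first-run 18 h array Insig1 L13619_at and Fdft1 M95591_at had their lowest value. Sqle and Idi1 AF003835_at had their second lowest there, after array b at 36 h. Other members were high on it: Fdps M89945mRNA_g_at (620) and rc_AI180442_at (626) had their highest value there. Dhcr7 AB016800_g_at (826) had its second highest. The part of RNA quality in these values was not tested.

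**Figure D2:**
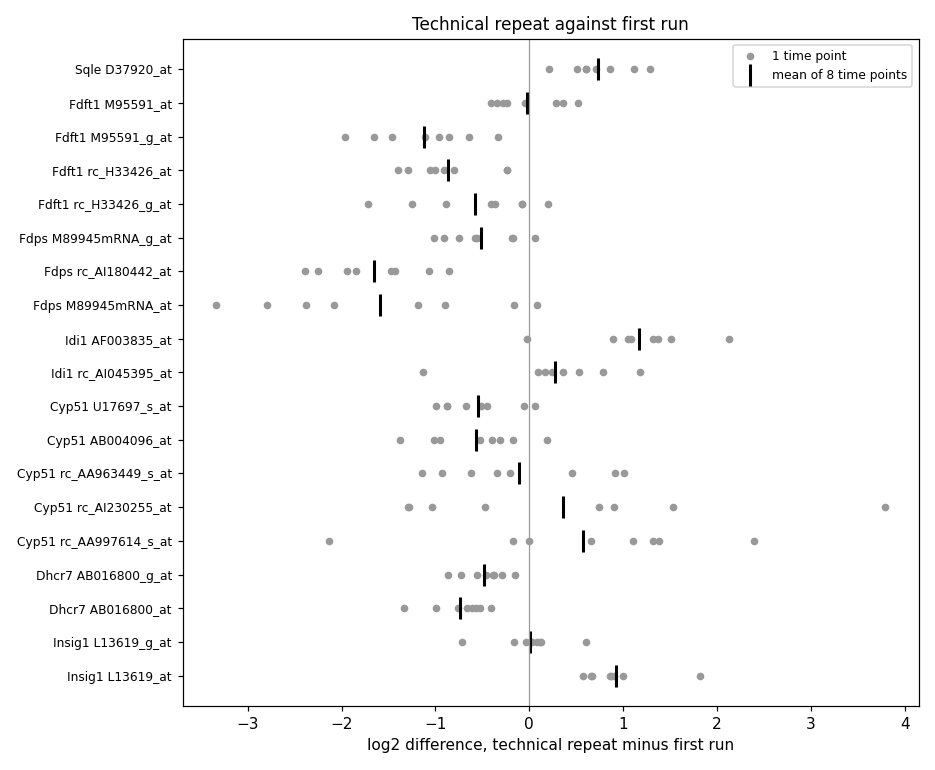
Log2 difference between the technical repeat and the first run for the 19 sterol gene probe sets. Grey points are the 8 time points and black bars their mean, which runs from -1.66 for Fdps rc_AI180442_at to 1.17 for Idi1 AF003835_at.

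A 24-h cosine fitted to the 8 pools asked whether the genes cycled. By limma's moderated test with Benjamini-Hochberg adjustment over all 4370 tested probe sets, 0 of 16 member probe sets had an adjusted p under 0.05 (0% of all tested), and the lowest was 0.746. At an unadjusted p under 0.05 there were 2 of 16, beside 6.36% of all tested. The amplitude, from fitted mean to peak, had a median of 0.17 log2 for the members and 0.16 for all tested. These 2 were Fdft1 M95591_g_at, with an amplitude of 0.41 ± 0.13 (SE) and a peak at CT 11.5, and Fdps rc_AI180442_at, with 0.38 ± 0.13 and a peak at CT 14.4. In an exact permutation test of the 8 pools, whose smallest reachable p is 0.00317, they gave p = 0.159 and p = 0.117.

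For scale, Dbp, a clock output gene that is a strong cycler in the SCN, read 479 at 0 h and 1243 at 12 h, and 516 at 24 h and 1175 at 36 h, on its probe set J03179_g_at. Its amplitude was 0.64 ± 0.09 with a peak at CT 11.7, and its adjusted p was 0.166 by limma, so this reference did not pass either at this number of pools. Of the members with a bright probe set, Sqle had an amplitude of 0.16 ± 0.09, Insig1 L13619_at of 0.28 ± 0.14 and Cyp51 U17697_s_at of 0.23 ± 0.11. Without the 3 arrays of high hybridisation controls these were 0.06, 0.09 and 0.20. The highest member amplitude, 0.69 ± 0.30, was that of the dimmer Cyp51 rc_AI230255_at, which was 1.42 in the first run and 0.50 in the repeat. The other Dbp probe set, J03179_at, gave 0.44 ± 0.14. Dbp J03179_g_at had the highest amplitude of the 11 tested clock gene probe sets. Their median was 0.22, and Per2 AB016532_at gave 0.06 ± 0.17. Whether the members' amplitudes differ from those of Dbp was not tested.

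Phases were also compared directly, with 2 pools per phase, in the same fit. For CT 12 minus CT 0, 0 of 16 passed the adjusted test (0% of all) and 2 of 16 had an unadjusted p under 0.05 (8.67% of all). Fdft1 M95591_g_at was higher at CT 12 by 0.81 ± 0.26 log2 (SE, adjusted p = 0.514), by 0.87 on day 1 and 0.75 on day 2, and by 0.35 in the first run and 1.26 in the repeat. Fdps rc_AI180442_at was higher by 0.62 ± 0.25 (adjusted p = 0.559), by 0.77 and 0.46 on the days and by 0.58 and 0.65 in the runs. Its fitted peak lay at CT 14.5 in the first run and CT 14.4 in the repeat, although the runs did not overlap in level. Without the 3 arrays of high hybridisation controls, and with run as a fixed term, its rhythm amplitude was 0.23 in place of 0.38 and its CT 12 minus CT 0 difference was 0.42. In that fit both values of Fdft1 M95591_g_at were larger, with an amplitude of 0.48 and a difference of 0.96. That fit has the 12 h and 18 h pools from the repeat alone, where the difference of this probe set was the larger.

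The other probe sets of both genes gave smaller differences at CT 12. For Fdft1, M95591_at gave 0.04 ± 0.23, with a 95% interval from -0.48 to 0.56. The Fdft1 probe sets rc_H33426_at and rc_H33426_g_at gave 0.29 ± 0.21 (-0.19 to 0.77) and 0.25 ± 0.25 (-0.29 to 0.80). For Fdps, M89945mRNA_g_at gave 0.03 ± 0.23, from -0.49 to 0.55. Insig1 was lower at CT 12 on both probe sets, by -0.41 ± 0.27 (interval -1.02 to 0.20) and -0.34 ± 0.18 (-0.75 to 0.06), and neither passed. Both were below 0 on each day and in each run, but without the 3 arrays of high hybridisation controls they were -0.11 and -0.09. Sqle gave -0.17 ± 0.18 (-0.58 to 0.24), which turned to 0.04 without these arrays, and Idi1 AF003835_at gave -0.31 ± 0.27 (-0.91 to 0.28). Cyp51 rc_AA963449_s_at gave -0.36 ± 0.20 (-0.82 to 0.09), but 0.18 in the first run and -0.91 in the repeat. Without these arrays, when the 12 h pool is read by the repeat alone, it gave -0.72. Over the 16 members 10 were higher and 6 lower at CT 12, with a median of 0.04, beside 0.01 for all tested.

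**Figure D3:**
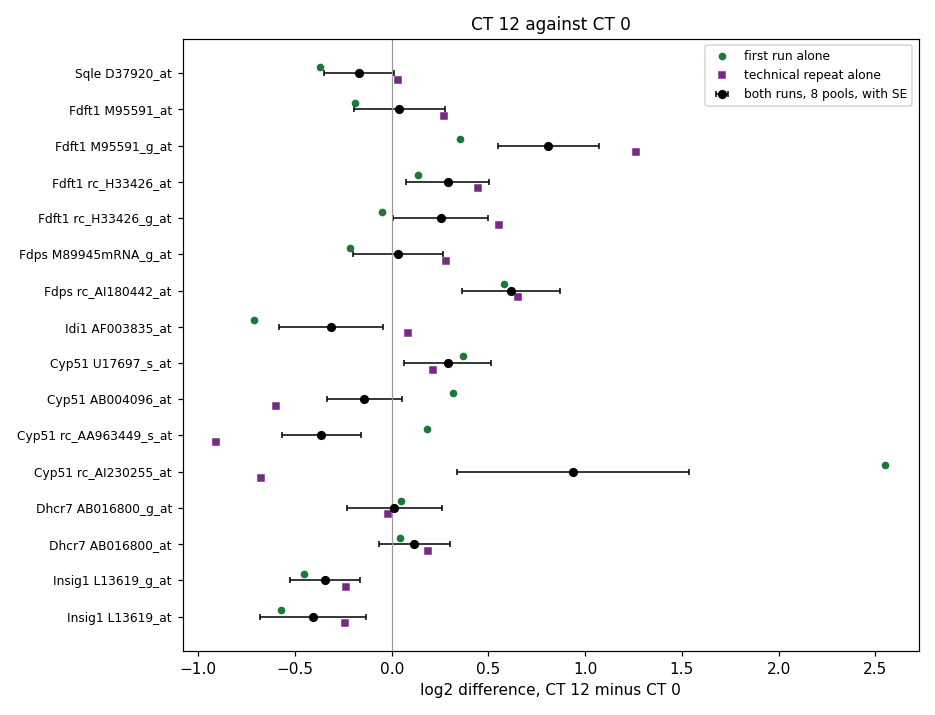
Log2 difference, CT 12 minus CT 0, of the 16 tested probe sets. Black points with SE are the fit to the 8 pools, green circles the first run alone and purple squares the repeat alone. Fdps rc_AI180442_at gave 0.58 and 0.65 in the runs, while Cyp51 rc_AI230255_at gave 2.55 and -0.68.

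For CT 6 minus CT 18 no member passed the adjusted test (0.0229% of all, which is 1 probe set), and 0 of 16 had an unadjusted p under 0.05 (4.26% of all). The member median was 0.11 log2, with 10 above 0, and that of all tested was -0.02. Fdft1 rc_H33426_at gave 0.42 ± 0.21, with 0.37 on day 1 and 0.47 on day 2, but 0.04 in the first run and 0.81 in the repeat. A 12-h pattern, CT 0 and 12 minus CT 6 and 18, was called in 0 of 16 by the adjusted test (0% of all) and had an unadjusted p under 0.05 in 0 of 16 (7.3% of all). The member estimates ran from -0.25 to 0.24 log2.

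The second day in darkness was set against the first with 4 pools each, the phase terms kept in the fit. The summed SCN peptide markers were lower in each pool of day 2 than in any of day 1. The day difference was -0.41 log2 for Sst M25890_at, 0.04 for Avp M64785_g_at and -0.06 for Calcr. The part of these markers in the day differences below was not tested. Again 0 of 16 passed the adjusted test (0% of all), and 1 of 16 had an unadjusted p under 0.05 (3.96% of all). Cyp51 rc_AI230255_at was higher on day 2 by 1.04 ± 0.28 log2 (SE), from a mean of 95.1 to 196, with an adjusted p of 0.997 by limma. An exact permutation test over the days gave p = 0.0857, where the smallest reachable p is 0.0286. The difference was 1.87 in the first run, where 0 h read 17.7 and 18 h read 26.2, and 0.21 in the repeat, and it was 0.74 without the 18 h pool and 0.74 without the 42 h pool.

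The brighter Cyp51 U17697_s_at gave a day difference of -0.01 ± 0.17, with a 95% interval from -0.39 to 0.37. The difference of both Cyp51 probe sets was -1.05 log2, with an exact permutation p of 0.0286, the smallest that test can give, and 0.429 after adjustment over the 15 pairs of probe sets of a gene. Of these 15 pairs, 8 had the same sign of the day difference and 3 had opposite signs of the run difference. Other members moved less between days: Sqle by -0.08 ± 0.14 (-0.39 to 0.22), Dhcr7 AB016800_g_at by 0.18 ± 0.17 (-0.21 to 0.57) and Insig1 L13619_at by 0.25 ± 0.19 (-0.18 to 0.67). The member median was 0.06 log2, with 9 of 16 above 0, beside 0.00 for all tested.

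**Figure D4:**
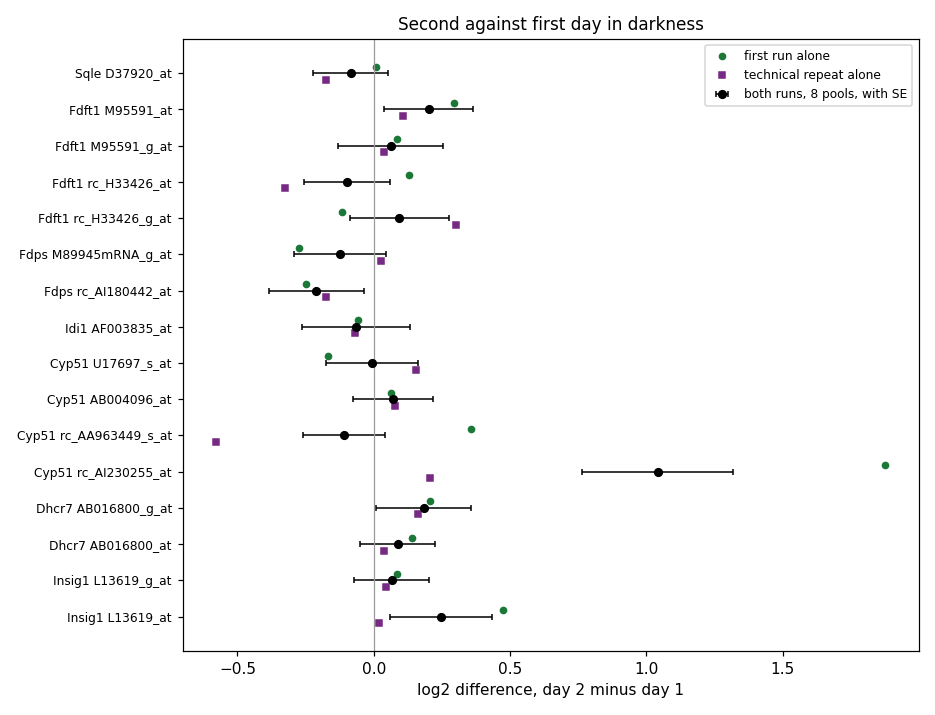
Log2 difference, second minus first day in darkness, of the 16 tested probe sets, drawn as for the phase comparison. The one member set apart, Cyp51 rc_AI230255_at at 1.04 ± 0.28, gave 1.87 in the first run and 0.21 in the repeat.

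Each gene was then followed by its brightest probe set, centred on its own mean, to see whether the 7 moved together. At 30 h all 7 lay above their own mean, by 0.19 ± 0.09 log2 (mean and SD over genes), with 7 above in the first run and 6 in the repeat. Of all tested genes 51.0% lay above their own mean at 30 h. Not every other tested probe set of the 7 genes did so. Fdps rc_AI180442_at read 135 at 30 h (mean 179), Cyp51 rc_AA963449_s_at 179 (mean 199) and Dhcr7 AB016800_at 270 (mean 273). The rest lay above their own mean. The time points with the most and the fewest genes above were 30 h and 36 h. At 36 h 1 of 7 was above, with a mean of -0.15 ± 0.17, 1 in the first run and 4 in the repeat, beside 53.7% of all genes. CT 6 of the first day did not show the pattern of 30 h, with 4 of 7 above and a mean of -0.04 ± 0.14. The genes are not replicates of a condition and share the arrays of a time point.

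Over the 8 pools, the genes most like the mean of the 7 among 2813 others were Rbck1 (Pearson r = 0.942), Atp2c1 (0.942), Tmsb15b2 (0.935), Pfkfb2 (0.921) and Arf5 (0.916). These are the highest of many values over points that share pools and arrays, and are given with no test. Within the first run the r of Atp2c1 was 0.94 and in the repeat 0.58, and for Rbck1 these were -0.15 and 0.52. The r of Tmsb15b2 and Pfkfb2 in the repeat was -0.05 and -0.13, and that of Arf5 was 0.83 and 0.41 in the runs.

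The probe sets under the level filter were dim. Idi1 rc_AI045395_at had pool intensities of 36.0 to 70.9, highest at 12 h, with an exact permutation p of 0.0413 for the rhythm. Its CT 12 minus CT 0 difference was 1.16 log2 in the first run and 0.14 in the repeat. Cyp51 rc_AA997614_s_at read 12.1 to 33.1, and 6 of the 18 arrays were at or below the floor of 12.1. Its exact permutation p was 0.0444, and its fitted peak was at CT 12.6 in the first run and CT 19.1 in the repeat. Fdps M89945mRNA_at read 54.4 to 166, with a run difference of -1.60 log2.

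Other enzymes of the pathway were measured for 10 of 16 listed genes, of which 8 with 12 probe sets were tested. None of the 12 passed an adjusted test, 0 had an unadjusted p under 0.05 for the rhythm, and for the day 1 was higher and 1 lower. The higher was Por rc_AI137856_s_at, the reductase that passes electrons to Cyp51, at 62.8 to 160 on day 1 and 163 to 251 on day 2, a difference of 0.76 ± 0.21 log2 that was 0.62 in the first run and 0.90 in the repeat. The days did not overlap, at 160 against 163, but this probe set was named for its day difference. The lower was Lss U31352_at, which closes the sterol ring, at -0.31 ± 0.14, from 207 to 244 on day 1 to 171 to 206 on day 2. The adjusted p of each by limma was 0.997. Another Por probe set, M10068mRNA_s_at, gave -0.05 ± 0.19, and another of Lss, D45252_s_at, gave -0.03 ± 0.15.

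Regulators and transport genes gave the following counts. Of 10 genes for sterol sensing and SREBP processing 3 were on the array and 2 were tested, with 0 at an unadjusted p under 0.05 for rhythm or day. Srebf1, which encodes SREBP-1, was dim at a mean intensity of 53.1. Srebf2 was not analysed here. For sterol uptake and intracellular transport (4 genes, 8 probe sets tested) and for efflux, esterification and turnover (8 genes, 9 probe sets), 0 had an unadjusted p under 0.05 for rhythm or day, and the same held for the enzymes of other mevalonate branches (5 genes, 6 probe sets). For CT 12 minus CT 0 an unadjusted p under 0.05 was met in the efflux list by 1 higher and 1 lower probe set and in the other branches by 1 higher, named here after their values were seen. These were Apoe X04979_at, a lipid carrier, at 0.60 ± 0.25 log2, Apod X55572_at, another lipid carrier, at -0.48 ± 0.21, and Fntb rc_AI136396_at, a farnesyltransferase subunit, at 0.92 ± 0.35. The limma adjusted p-values were 0.559, 0.569 and 0.523, and the other tested probe sets of Apoe and Fntb gave -0.09 ± 0.33 and 0.04 ± 0.17.

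Fatty acid synthesis, which SREBP-1 governs, had 15 probe sets of 6 genes tested, with 1 at an unadjusted p under 0.05 for the rhythm and 1 for the day. Scd2 U67995_s_at, a stearoyl-CoA desaturase, had an amplitude of 0.47 ± 0.14 log2 with a peak at CT 6.03, at CT 8.63 in the first run and CT 3.52 in the repeat. Me1 rc_AI171506_at, the malic enzyme that supplies NADPH, was higher on day 2 by 0.48 ± 0.14, by 0.55 and 0.42 in the runs. Its days did not overlap (396 to 490 and 582 to 721), but it was named for its day difference. The other tested Me1 probe sets gave 0.23 ± 0.14 for rc_AI171506_g_at (0.40 and 0.05 in the runs), 0.02 ± 0.14 for rc_AI008020_at and -0.20 ± 0.20 for M26594_at. Neither Scd2 U67995_s_at nor Me1 rc_AI171506_at passed the adjusted test, with limma adjusted p-values of 0.746 and 0.997.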

How the data were processed

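Each value is a probe set intensity on a linear scale, as deposited by the authors, and per the labels 1 value was given per array. The summary algorithm behind them is not given in the sources used here. Intensities were set to at least the 10th percentile of the table (12.1) and put on the log2 scale. First-run arrays of the same time point, assumed to read 1 pool, were averaged, then both runs. The 59 control probe sets were left out, and 4370 probe sets with a mean above the median (geometric mean intensity 121) were tested with limma 3.58.1 in R 4.3.3, with Benjamini-Hochberg adjustment and a threshold of 0.05. The fits had a cosine and sine of 24 h, contrasts of phases, and a day term, and the replicate was the pool. Fits were tested on simulated data. Exact permutation tests were two-sided and moved pools over time points. Members, lists and tests were chosen with earlier results of these data known. All member probe sets were described. Of the sterol, mevalonate and fatty acid lists a gene was named at an unadjusted p under 0.05 for rhythm or day, at most 4 a list. Srebf1, Dbp and the 5 genes most like the members were named besides. The cell type marker and clock lists did not follow this rule, and genes that met it there are not all named. For the rhythm, an unadjusted limma p under 0.05 was met by 1 of 11 oligodendrocyte and 2 of 13 astrocyte probe sets. It was met by 1 of 6 pan-neuronal, 1 of 5 SCN peptide, 1 of 4 choroid plexus and 4 of 11 clock probe sets (6.36% of all tested). Other choices of normalisation, filter, floor, model, run and pool were tried. Promoter windows came from RefSeq.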

Additional observations from a re-analysis of the deposited data

Results flagged for a closer look

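Within the 4 pools of a day, the gap of the outermost pool to its neighbour was large against the whole range in 4 of 32 groups of member values, or 12.5%, where chance gives about 1 in 20 and 5.24% of the 8740 such groups over all tested probe sets passed. The groups share pools and arrays. All lay on day 2. Cyp51 rc_AA963449_s_at stood out at 24 h, with 229 against 179 to 181 in the other pools (gap over range 0.963). Insig1 L13619_g_at was low at 36 h, with 1763 against 2355 to 2392 (0.949). Fdft1 rc_H33426_at was high at 30 h, with 363 against 254 to 261 (0.925). Dhcr7 AB016800_g_at was low at 42 h, with 497 against 658 to 684 (0.879). For Cyp51 rc_AA963449_s_at, arrays a and b at 24 h read 156 and 424, and for Insig1 L13619_g_at arrays a and b at 36 h read 2481 and 1231. The part of these arrays in the gaps was not tested.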

How the results depend on the processing

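No member probe set had an adjusted p under 0.05 under any of the 22 alternatives run (21 for the 12-h pattern). The lowest adjusted p over these was 0.559 for the rhythm and 0.38 for CT 12 minus CT 0 (both Fdft1 M95591_g_at without the 3 arrays of high hybridisation controls and with run as a block, an alternative chosen after seeing the data), 0.734 for CT 6 minus CT 18, 0.461 for the 12-h pattern and 0.544 for the day. Signs of member estimates changed in 24 of 344 values for CT 12 minus CT 0, 23 of 344 for CT 6 minus CT 18, 46 of 328 for the 12-h pattern and 33 of 344 for the day. Member probe sets at an unadjusted p under 0.05 for the rhythm numbered 2 in the main fit and 0 with arrays scaled to the same median. They numbered 0 in the first run alone, 3 in the repeat alone, 3 without the 3 arrays and 0 to 4 when a pool was left out. For CT 12 minus CT 0 they numbered 2, and 0 to 2 when a pool was left out, with 0 without the 12 h pool. Over all tested probe sets, calls of a rhythm rose from 0 to 2 above the 75th percentile of level and to 2 with trend and robust, and to 1 in the repeat alone, with run as a block and without the 3 arrays. For CT 12 minus CT 0 they rose from 0 to 1, 1 and 2 in the first 3 of these. The 1 call of CT 6 minus CT 18 became 0 without the level filter, in either run alone, without arrays a, with day added, and in all fits that left out a pool (0 to 0). For the day, leaving out a pool gave 0 to 1 calls. The cause was not tested. Signal limits the dim probe sets, and 1 pool per time point limits all tests.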
